A study of Mus musculus with 69 samples.

Results

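Tetraspanins are small proteins that cross the cell membrane several times and gather partners such as integrins, immunoglobulin-type receptors and proteases into patches of membrane. Some mark organelles: Tspan4 collects on migrasomes, the vesicles left on the trailing fibres of moving cells, and Cd63 marks late endosomes, lysosomes and exosomes. Others mark cell types, as Cd37 and Cd53 mark leukocytes. In the lung they are found on epithelium, endothelium, macrophages and lymphocytes.

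The 10 tetraspanin genes described here are Tspan4, Tspan2, Tspan8, Cd9, Cd63, Cd81, Cd82, Cd151, Cd53 and Cd37. They were found by the accession of each array probe, through the RefSeq symbol it belongs to, and make up 10 of 18656 genes tested. Tspan2 and Cd37 have 2 probes and the others 1, so that 12 probes measured them. Each of the 12 was well above background in the lung channel on all 69 arrays, and no spot was saturated in that channel.

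Lungs came from 69 C57BL/6 mice that received, in 1 intratracheal instillation, 18, 54 or 162 µg of nano-TiO2 (titanium dioxide nanomaterial, NM) or the vehicle alone. The NMs are named NRCWE-025 and NRCWE-030, and lungs were taken on day 1 or day 28. RNA came from a small piece of each frozen lung. Each of the 14 groups held 5 mice, except NRCWE-025 at 162 µg on day 28 with 4, and both NMs were set against the same 5 vehicle lungs of a day. All values are log2 ratios of a lung (Cy5) to a common pool of mouse reference RNA (Cy3), 1 array per mouse, and differences are on the same log2 scale.

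Tspan4 and Tspan2 were chosen by earlier results of these data: Tspan4 for its differences between doses of NRCWE-030 and between the NMs, Tspan2 for NRCWE-025 on day 1. Their values there are given as a description, with no test. In the RefSeq table the ends of Tspan4 and its neighbour Chid1 overlap, and whether the 1 probe of Tspan4 lies in the overlap was not tested. One array, NRCWE-030 18 µg day 28 replicate 5, stood apart from the rest, with 43.6% of its spots well above background in the reference channel. Its values used here had r = 0.926 with the deposited normalised values. Without this array the difference of Cd63 in its group was -0.10 in place of -0.25. In whole tissue, fewer cells of a type cannot be told apart from less RNA per cell.

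Tspan4 was higher in lungs given NRCWE-030, in steps with the dose, on both days. On day 1 the 5 controls were at -1.33, -0.91, -0.80, -0.31 and 0.35. The 5 lungs at 162 µg of NRCWE-030 were at 0.36, 0.39, 0.59, 0.68 and 0.80. All 5 treated lungs lay above every control, where 4.55% of all genes did not overlap. The mean was 1.16 ± 0.21 (SE) above control, or 2.24-fold, and it was 0.86 above control at 54 µg and 0.62 at 18 µg with the same SE. At these lower doses the arrays overlapped those of the controls, which were spread more widely (SD 0.64, n = 5) than any other group.

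On day 28 the controls were close together, at -1.08, -0.86, -0.77, -0.75 and -0.70. Tspan4 at 162 µg of NRCWE-030 was at -0.17, -0.12, -0.08, -0.08 and 0.08, and at 54 µg at -0.40, -0.34, -0.17, -0.17 and -0.08. None of these 10 lungs overlapped the controls. The differences were 0.76 ± 0.08 (SE) at 162 µg and 0.60 ± 0.08 at 54 µg, or 1.69-fold and 1.52-fold, while at 18 µg the difference was 0.08 and the arrays overlapped. Over all genes, 2.11% did not overlap between 162 µg and control in that comparison and 1.59% between 54 µg and control.

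With NRCWE-025 the pattern was another one. On day 1 Tspan4 was at -0.22, -0.21, -0.16, 0.08 and 0.18 at 162 µg, inside the range of the controls, with a mean difference of 0.53 ± 0.20 (SE). The differences at 18 and 54 µg were -0.15 and 0.05. On day 28 all 3 doses were below control, by 0.31 at 18 µg, 0.20 at 54 µg and 0.09 at 162 µg. At 18 µg 4 of 5 lungs lay under every control.

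**Figure D1:**
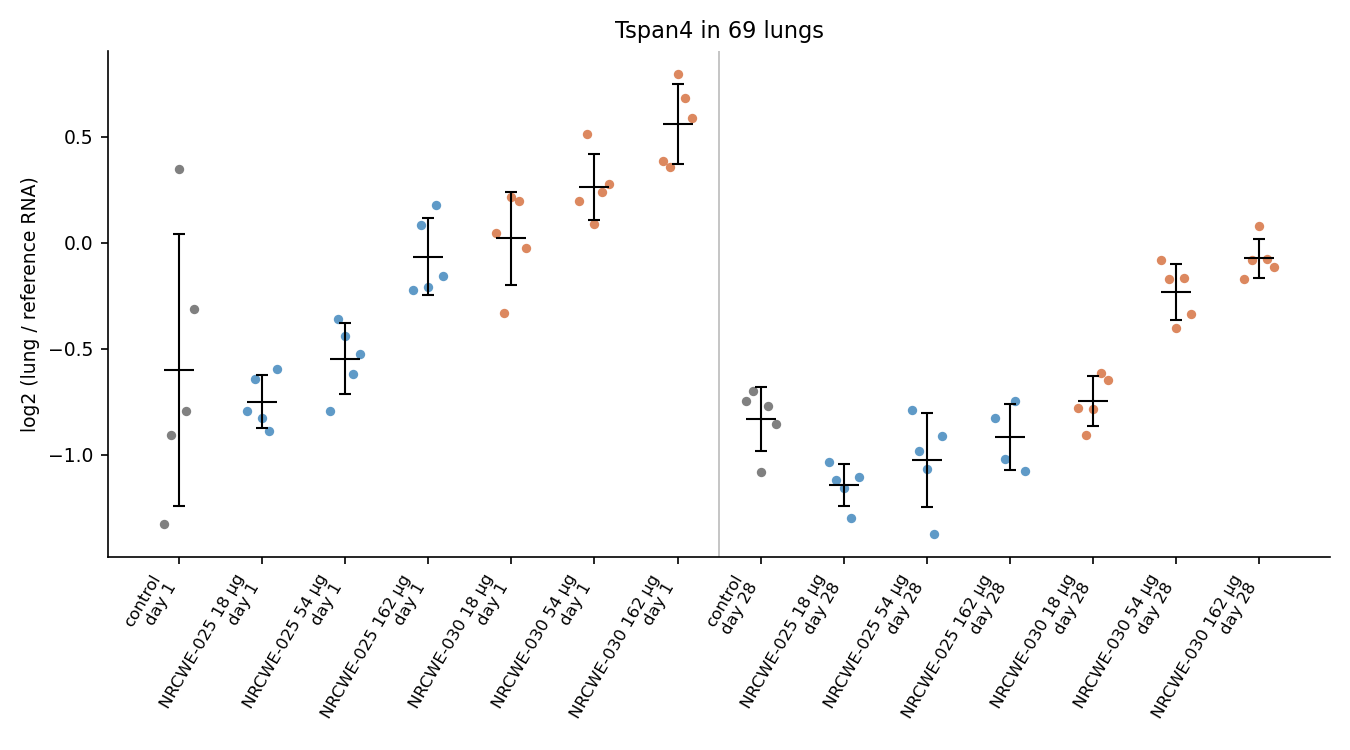
Tspan4 in each of the 69 lungs, as the log2 ratio of lung to reference RNA (y axis), by material, dose and day (x axis). Points are mice, grey for control, blue for NRCWE-025 and orange for NRCWE-030, and black bars give the mean and SD of a group; the controls of day 1 run from -1.33 to 0.35, and NRCWE-030 lies above NRCWE-025 at each dose of each day.

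Set directly against each other at the same dose and day, lungs given NRCWE-030 had more Tspan4 RNA than those given NRCWE-025 in all 6 pairs of groups, with no overlap in any. The share of all genes that did not overlap was 0.906%, 0.992% and 1.47% at 18, 54 and 162 µg on day 1, and 1.43%, 1.05% and 0.949% on day 28. On day 1 the difference was 0.77 at 18 µg, 0.81 at 54 µg and 0.63 at 162 µg, each ± 0.14 (SE). On day 28 it was 0.40, 0.80 and 0.84 in the same order of dose, with an SE of 0.14 at the lower doses and 0.15 at 162 µg. Of all genes, 0.0107% did not overlap in 1 direction in all 6 pairs, Tspan4 and the clock gene Per2. This contrast is among those that chose Tspan4, so nothing is read from that share. The other 9 tetraspanins overlapped between the NMs in all 6 pairs.

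Each slide held arrays of several mice. Where a slide held both NMs at 1 dose, Tspan4 was higher with NRCWE-030 in each case, by 0.50 to 0.80 in 7 cases on day 1 and by 0.54 to 1.04 in 5 on day 28. Against the control of the same slide, 162 µg of NRCWE-030 was higher by 1.11 and 1.18 on the 2 slides of day 1 and by 0.58 to 1.00 on the 3 of day 28. In both sets of comparisons the groups did not overlap over all arrays, so the direction within a slide was fixed beforehand. Only the sizes are described. For NRCWE-025 at 162 µg on day 1 the difference from the control of the slide was 1.11 on 1 slide and -0.27 on the other. The control on the first was the lowest of that day and the control on the other the highest, so slide and control mouse cannot be told apart.

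Ordered by mean, the 14 groups ran from 0.56 at 162 µg of NRCWE-030 on day 1 to -1.14 at 18 µg of NRCWE-025 on day 28, a span of 1.71 or 3.27-fold. The top 3 groups were the 3 doses of NRCWE-030 on day 1, from high to low, then 162 µg of NRCWE-025 on day 1 (-0.06) and 162 µg of NRCWE-030 on day 28 (-0.07). The lowest 4 were the control and the 3 doses of NRCWE-025 of day 28. Each of the 13 neighbours in that order overlapped the next, so the order of neighbours is not settled by these arrays. The vehicle controls did not show a difference between the days in limma's test (day 28 minus day 1 of -0.23 ± 0.14 SE, adjusted p = 0.686). The doses of NRCWE-030 were set against these same controls, so the result is no separate evidence. Those of day 1 were also widely spread (SD 0.64).

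RefSeq gives 2 start sites for Tspan4 in its GRCm38.p6 table, both on the plus strand of chromosome 7. Activators of the circadian clock, such as the product of Arntl, bind the E-box CACGTG. Both windows are shown because Arntl and the clock-linked genes Dbp, Per2 and Hlf are among the 8 genes most like or unlike Tspan4 below. Each runs from 250 bases before a start site to 50 after it, and capitals mark the E-box, which reads the same on both strands.
Tspan4, chr7:141474986-141475285, plus strand: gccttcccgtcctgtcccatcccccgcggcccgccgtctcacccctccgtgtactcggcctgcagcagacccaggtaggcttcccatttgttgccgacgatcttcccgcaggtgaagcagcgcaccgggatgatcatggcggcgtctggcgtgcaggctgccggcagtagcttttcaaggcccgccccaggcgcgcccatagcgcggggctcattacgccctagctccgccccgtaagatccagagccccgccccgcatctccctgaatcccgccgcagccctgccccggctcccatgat
Tspan4, chr7:141476130-141476429, plus strand: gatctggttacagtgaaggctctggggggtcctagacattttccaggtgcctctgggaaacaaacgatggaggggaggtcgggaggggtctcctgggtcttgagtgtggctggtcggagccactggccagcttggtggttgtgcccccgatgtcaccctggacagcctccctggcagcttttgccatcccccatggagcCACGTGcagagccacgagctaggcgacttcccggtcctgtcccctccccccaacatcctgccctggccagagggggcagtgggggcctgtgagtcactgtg
The second window holds 1 E-box, which begins 51 bases before the start site, and the first holds none. An E-box stands in 7.15% of all 32851 such windows in the table. Among the 16 windows of the 10 tetraspanins it stands in 2, this one and that of Cd37. Of the 8 genes named below as most like or unlike Tspan4, 5 have windows, 6 in all, and 1 of these, that of Ripk3, holds an E-box. The D-box, searched as TTATGTAA on both strands with no overlap with the E-box, was found in 0.938% of all windows and in 0 of the 16. These matches describe letters in the windows only, and the array probe does not tell which start site was used.

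The genes whose pattern was nearest to that of Tspan4, or nearest to its opposite, were ranked over the 69 arrays. Among 13709 other genes well above background on at least 35 arrays, the highest Pearson correlations were those of Dbp (r = 0.82), Per2 (0.82), Rnaseh2b (0.78), Hlf (0.77) and Ripk3 (0.76). The lowest were those of Arntl (-0.91), Rasl11a (-0.83) and Nxph3 (-0.83). Arntl, also called Bmal1, encodes the activator at the centre of the clock, Per2 one of its repressors, and Dbp and Hlf are transcription factors whose RNA cycles with it. Rnaseh2b encodes a subunit of RNase H2, Ripk3 a kinase of necroptosis, Rasl11a a small GTPase and Nxph3 a neurexophilin. These values describe the arrays, which share the reference RNA, slides and treatments, and carry no test.

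The relation of Tspan4 and Arntl was found on each day by itself, with r = -0.89 over the 35 arrays of day 1 and -0.90 over the 34 of day 28. Spearman's rho over the 69 was -0.90, and r without the 2 arrays farthest from the median of Tspan4 was also -0.90. Within groups, after the group mean was taken from each array, r was -0.58 for Arntl, 0.49 for Dbp and 0.45 for Per2. Within-group values were thus smaller in size than those over all arrays. With other background corrections, the scanner log ratio or the series matrix, r between Tspan4 and Arntl ran from -0.93 to -0.89.

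Group means of Arntl were low where those of Tspan4 were high with NRCWE-030. Arntl was at 0.10 in the controls of day 1 and at -1.41 with 162 µg of NRCWE-030, and at 0.45 and -0.92 in the same groups of day 28. With 162 µg of NRCWE-025 it was at -0.55 on day 1 and 0.40 on day 28, when Tspan4 too was slightly under control.

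One control mouse of day 1, replicate 3, stood apart for most of these genes, and is named after its values were seen. Its Tspan4 was 0.35, where the other controls of that day ran from -1.33 to -0.31. Its Arntl was -1.70, the second lowest of 69, against 0.36 to 0.82 in the other 4, and its Dbp of 2.26 was the highest of 69. Per2 and Hlf were above the other 4 controls too, at 0.98 and 3.10, and Rasl11a and Nxph3 below them, at -1.43 and 2.46. Rnaseh2b at -0.84 was just above the others (-1.27 to -0.88), and Ripk3 at -1.48 lay inside their range (-1.89 to -1.39). Without this array Tspan4 was 1.40 above control at 162 µg of NRCWE-030 on day 1 in place of 1.16, and 0.77 above it with NRCWE-025 in place of 0.53. The differences of NRCWE-025 at 18 and 54 µg were then 0.09 and 0.29 in place of -0.15 and 0.05, so that the first changed sign. The overlap with the controls of 54 µg of NRCWE-030 and of 162 µg of NRCWE-025 on day 1 also rested on this array, as the next control was at -0.31. The effect of 162 µg of NRCWE-030 on day 1 was 0.40 larger than on day 28 with all arrays, 0.64 larger without that control and 0.22 larger without control replicate 1, the lowest. The labels used here do not give the time of day at which a lung was taken.

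**Figure D2:**
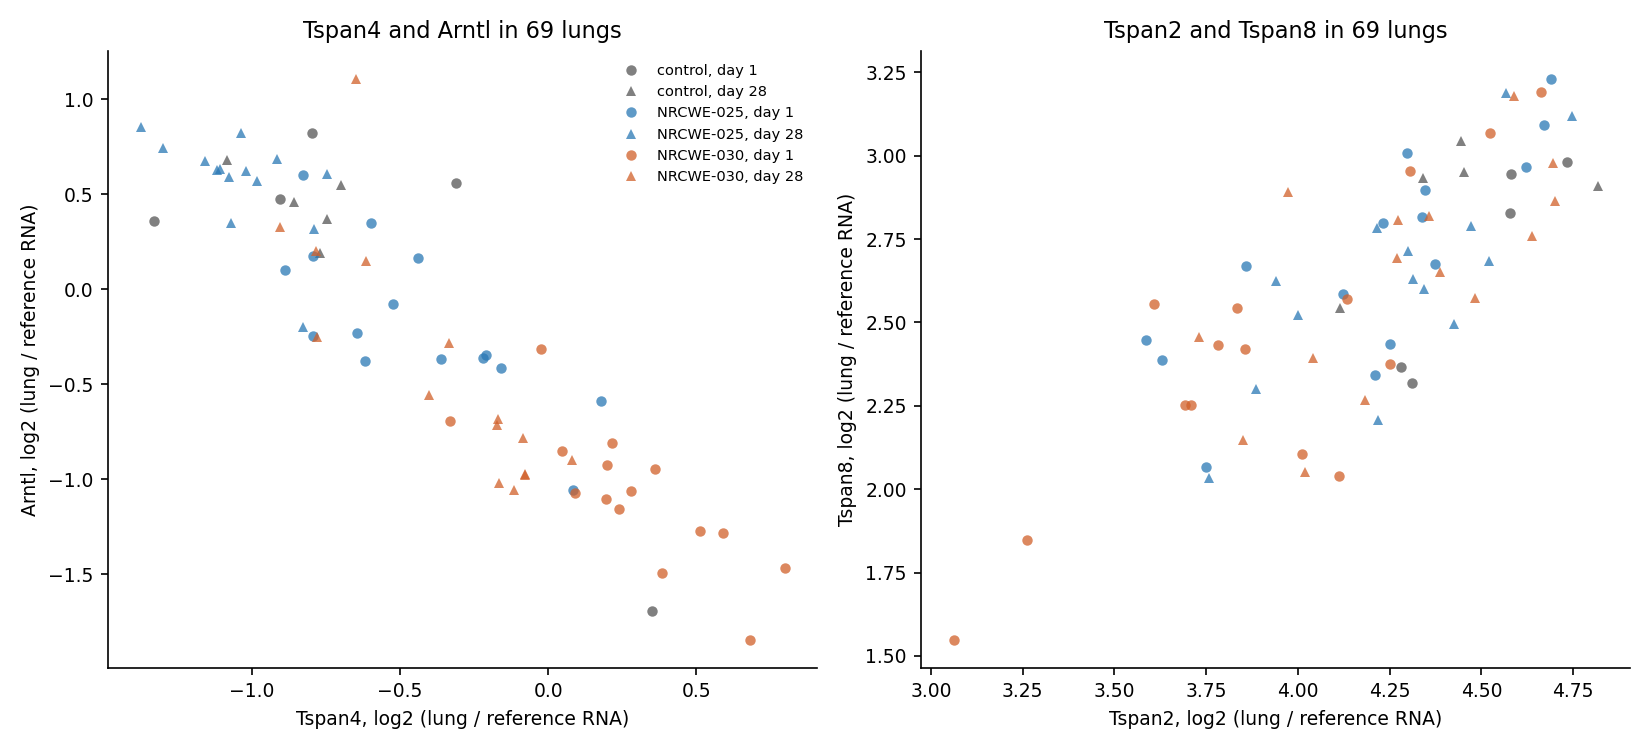
Left, Arntl (y axis) against Tspan4 (x axis), and right, Tspan8 against Tspan2, each as log2 of lung over reference RNA in 69 lungs. Circles are day 1 and triangles day 28, with grey for control, blue for NRCWE-025 and orange for NRCWE-030; r is -0.91 on the left, where 1 grey circle lies at 0.35 and -1.70 among the orange points, and 0.78 on the right.

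Cd63 was the 1 tetraspanin, of the 9 tested, that rose in a called comparison. On day 1 it was at -1.46, -1.24, -1.03, -0.90 and -0.78 in the controls. At 162 µg of NRCWE-030 it was at -0.36, -0.31, -0.29, -0.27 and -0.27. The treated lungs lay close together (SD 0.04, n = 5), all above the highest control. The rise was 0.78 ± 0.12 (SE), or 1.72-fold, with a 95% interval of 0.54 to 1.02 and an adjusted p = 0.00155 by limma. The dose effect over control, 18, 54 and 162 µg was also called (limma F-test, adjusted p = 0.00259). By these rules 1.69% of all genes were called at 162 µg and 0.954% for dose.

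At the lower doses of NRCWE-030 Cd63 did not pass, with differences of -0.03 at 18 µg and 0.28 at 54 µg (adjusted p = 0.979 and 0.472). With 162 µg of NRCWE-025 the lungs were split, 2 inside the range of the controls at -1.37 and -1.32 and 3 above it at -0.63, -0.33 and -0.10. The mean difference of 0.33 ± 0.23 (SE) did not pass (adjusted p = 0.598, 95% interval -0.15 to 0.81). A direct test of NRCWE-030 against NRCWE-025 on day 1 did not call Cd63 (limma F-test over 3 doses, adjusted p = 0.638), so a difference between the NMs was not shown.

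By day 28 Cd63 at 162 µg of NRCWE-030 was at -1.28, -1.25, -1.11, -0.77 and -0.55, against -1.24, -1.17, -1.07, -1.04 and -1.02 in the controls. The groups overlapped, and the difference was 0.11 ± 0.15 (SE, adjusted p = 0.915). The effect on day 1 was 0.67 ± 0.24 (SE) larger than on day 28, which did not pass (adjusted p = 0.409).

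Within the 2 slides that held both controls and 162 µg of NRCWE-030 on day 1, Cd63 was higher by 0.51 and 0.64. Since these 2 groups did not overlap over all arrays, that direction was fixed beforehand. With slide as a fixed block the difference was 0.56 with an adjusted p = 0.0665, and with scan day as a fixed block 0.56 with 0.0605, so the call was lost in both. The scanner software's own log ratio lost the dose call (adjusted p = 0.173) at a difference of 0.77. Among the markers of other cell types, 5 of the 7 neutrophil genes tested were higher in these lungs. Of these, 1 was called, Csf3r, the receptor for granulocyte colony-stimulating factor (1.25), beside 1.22% of all genes called higher. The mean over the neutrophil list ran from 2.13 to 2.57 in the controls and from 2.46 to 3.16 in the treated lungs. The mean over the macrophage list ran from 3.45 to 3.98 and from 3.10 to 3.90. Over the 69 arrays the r of Cd63 was 0.39 with the neutrophil mean and -0.19 with the macrophage mean. After group means were removed these were 0.26 and -0.13. The part of these cells in the rise of Cd63 was not tested.

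**Figure D3:**
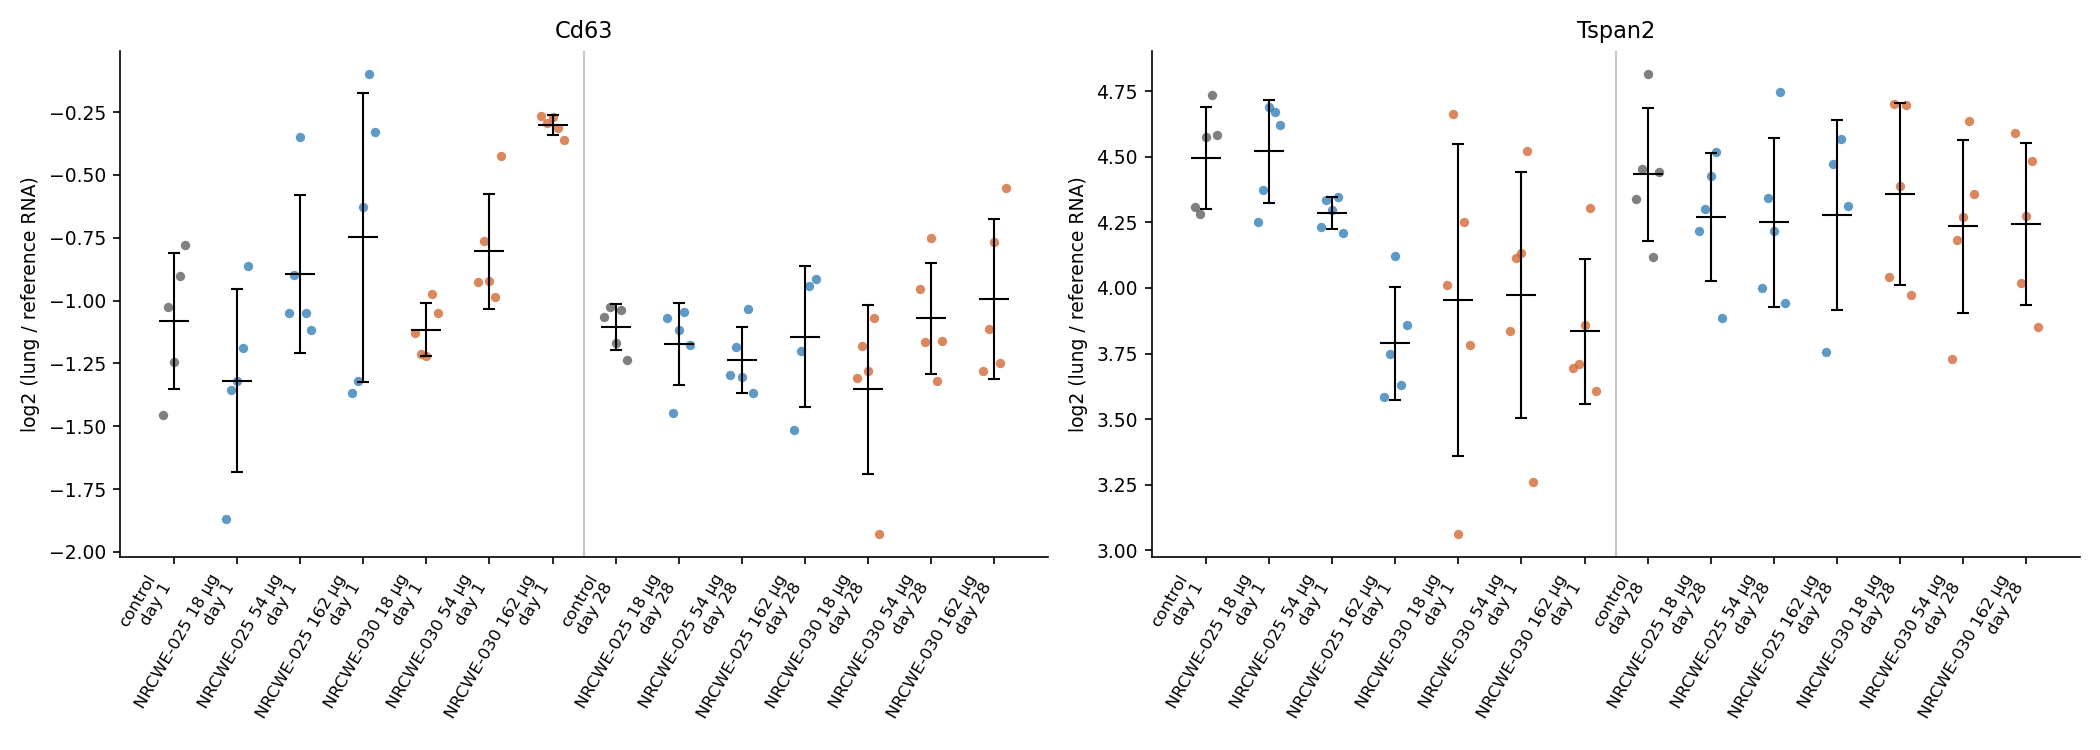
Cd63 (left) and Tspan2 (right) in each of the 69 lungs, as log2 of lung over reference RNA (y axis), by group (x axis), with points for mice and black bars for the mean and SD. Cd63 at 162 µg of NRCWE-030 on day 1 lies between -0.36 and -0.27, above all controls of that day, and Tspan2 at 162 µg of NRCWE-025 on day 1 lies between 3.59 and 4.12, below them.

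Cd9 and Cd81, which pair on the cell surface and on exosomes with the immunoglobulin-type partners Igsf8 and Ptgfrn, were lower at 162 µg of NRCWE-030 on day 1 without passing the test. Cd9 was at 1.54, 1.74, 1.76, 2.00 and 2.06, with 4 of 5 lungs below every control (2.02 to 2.89). The difference was -0.48 ± 0.18 (SE, adjusted p = 0.215). Cd81 was at 0.43, 0.43, 0.58, 0.83 and 0.96 against 0.71 to 1.34 in the controls, a difference of -0.32 ± 0.12 (SE, adjusted p = 0.239). An unadjusted p under 0.05 was found here for 5 of 9 tetraspanins, Tspan2, Cd9, Cd63, Cd81 and Cd53, beside 12.9% of all genes, where Tspan2 shares its controls with the comparison that chose it.

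On day 28 Cd9 was higher than control by 0.11 to 0.21 in all 6 exposed groups, and the differences of Cd81 lay between -0.16 and 0.02. None passed, and the 6 groups share their 5 controls. The mean of Cd9 in those controls was 1.95, against 2.30 in the controls of day 1. Day 28 minus day 1 in vehicle lungs was -0.35 ± 0.16 (SE, adjusted p = 0.542).

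Cd151, a partner of the integrins that bind laminin in basement membrane, did not pass in any comparison. Its differences ran from -0.23 to 0.26 over the 12 exposures. At 162 µg of NRCWE-030 on day 1 the lungs lay between 1.70 and 1.85 and the controls between 1.07 and 1.73, a difference of 0.26 with a 95% interval of -0.08 to 0.61. Cd82, known as a suppressor of metastasis, had differences from -0.10 to 0.21. At 162 µg of NRCWE-030 its difference of 0.11 on day 1 had an interval of -0.22 to 0.44, and that of -0.10 on day 28 an interval of -0.34 to 0.15. Without control replicate 1 of day 1, at -0.64 far below the other 4, the 0.11 became -0.09 and the 0.21, at 162 µg of NRCWE-025, became 0.01.

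Tspan2, best known from myelin-forming cells, was lower on day 1 at 162 µg of NRCWE-025. The controls were at 4.28, 4.31, 4.58, 4.58 and 4.73. At 162 µg of NRCWE-025 the lungs were at 3.59, 3.63, 3.75, 3.86 and 4.12, all 5 below the lowest control, where 2.09% of all genes did not overlap. That separation is one of the median over probes and was not complete for either probe by itself. The difference of -0.71 ± 0.11 (SE), or 1.63-fold lower, is a description, since that comparison chose the gene. At 18 and 54 µg the differences were 0.02 and -0.21.

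With NRCWE-030 on day 1 Tspan2 was lower by about the same amount at each dose. At 162 µg it was at 3.61, 3.69, 3.71, 3.86 and 4.30, with 4 of 5 lungs below every control. The differences were -0.54 at 18 µg, -0.52 at 54 µg and -0.66 at 162 µg, each ± 0.24 (SE), and none passed (adjusted p = 0.653, 0.547 and 0.210). These comparisons use the 5 controls of the one that chose Tspan2, so their direction is no separate evidence. The spread at 18 µg was the widest of Tspan2 in any group, from 3.06 to 4.66. On day 28 its differences were between -0.20 and -0.07 for both NMs, and none passed.

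Both probes of Tspan2 were lower at 162 µg on day 1, by 0.72 and 0.69 with NRCWE-025 and by 0.78 and 0.54 with NRCWE-030. In the same order, 4 and 3 lungs given NRCWE-025 lay below every control, and 5 and 3 given NRCWE-030. Their correlation over 69 arrays was 0.67. One of them was well above background in the reference channel on 28 of 69 arrays, so its ratio rests on a dim denominator. The difference with NRCWE-025 at 162 µg moved to -1.30 with local backgrounds as deposited, and to -0.44 with the scanner log ratio, in which both background correction and normalisation differ. Heart muscle markers had a list mean from 0.63 to 1.14 in those lungs and from 0.96 to 4.21 in the controls. All 6 genes were lower and none was called, beside 0.209% of all genes called. Over the 69 arrays the r of Tspan2 with that list mean was -0.18, and -0.46 after group means were removed. The part of heart muscle in the values of Tspan2 was not tested.

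Tspan8, found on epithelial cells, ran with Tspan2 across the arrays. Of the 45 pairs among the 10 genes they had the highest correlation (r = 0.78, Spearman's rho = 0.78, 69 arrays), and it was 0.77 after group means were removed. Without the 2 arrays farthest from the median of Tspan2 it was 0.72, and it was 0.81 on day 1 and 0.72 on day 28. Both also followed the mean of the markers of alveolar type 1 cells, the flat cells of the air sacs (Ager, Aqp5, Hopx and Pdpn), with r = 0.52 for Tspan2 and 0.62 for Tspan8. These were the highest of each gene among the marker lists. Tspan2 also had 0.40 with endothelium and 0.38 with alveolar type 2 cells. After group means were removed, Tspan8 had 0.61 with type 1 cells, -0.60 with heart muscle and -0.48 with smooth muscle. Arrays share slides, treatments and the reference, and these values carry no test.

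Tspan8 itself did not pass in any comparison. On day 1 its difference at 162 µg was -0.26 for NRCWE-025 and -0.20 for NRCWE-030 (adjusted p = 0.570 and 0.855). On day 28 it was lower than control in all 6 exposed groups, by 0.12 to 0.32, with arrays that overlapped in each. The lowest adjusted p among these was 0.682.

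Cd53 and Cd37 are carried by leukocytes, Cd37 most of all by B cells. Cd53 at 162 µg of NRCWE-030 on day 1 was at 0.11, 0.36, 0.49, 0.73 and 0.78, against -0.27 to 0.44 in the controls. The difference was 0.40 ± 0.17 (SE) and did not pass (adjusted p = 0.306); it was 0.12 with slide as a fixed block. Cd37 in the same lungs was at 0.21, 0.26, 0.34, 0.43 and 0.70, against 0.33 to 1.19, a difference of -0.28 ± 0.16 (SE, adjusted p = 0.510).

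Over the 69 arrays Cd37 followed the mean of the leukocyte markers (Ptprc, Laptm5, Coro1a, Lcp1 and Tyrobp), with r = 0.60, and 0.68 after group means were removed. Cd53 followed the leukocyte markers at r = 0.65 and the T cell markers at 0.60. The largest negative value within groups was that of Cd81 and Cd37, at -0.60. The mean over the leukocyte list ran from 0.64 to 0.98 in the controls of day 1 and from 0.81 to 1.00 at 162 µg of NRCWE-030.

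**Figure D4:**
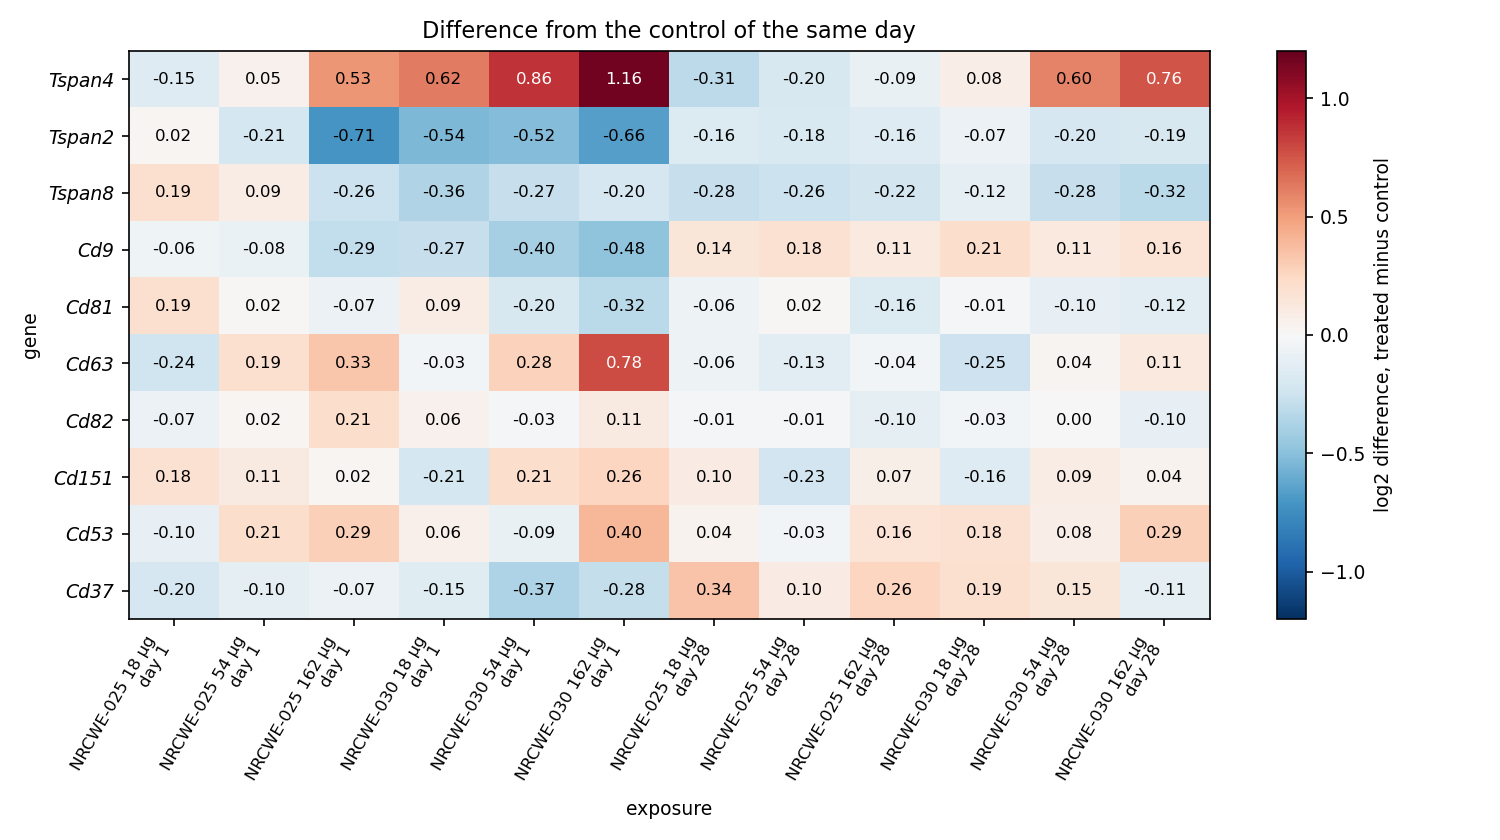
Log2 difference of each of the 10 tetraspanins (y axis) from the control of the same day in the 12 exposed groups (x axis), with blue for lower, red for higher and the value printed in each cell. The row of Tspan4 reaches 1.16 and 0.76 at 162 µg of NRCWE-030 on days 1 and 28, Cd63 stands out at 0.78 on day 1, and Tspan2 is between -0.71 and -0.52 in 4 groups of day 1.

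At 162 µg of NRCWE-030 on day 1, 4 of the 9 tested were higher and 5 lower than control. Their median was -0.20, beside 0.00 over all genes. The 9 include Tspan2 (-0.66), which shares these controls with the comparison that chose it, so nothing is read from the split or the median. On day 28 the same dose had 4 higher and 5 lower, with a median of -0.10 and 0 called, beside 0.0965% of all genes, and 0 with an unadjusted p under 0.05, beside 7.51%. With 162 µg of NRCWE-025 the 8 tested on day 1 were 4 higher and 4 lower, and the 9 tested on day 28 were 4 and 5. In both of these 0 were called by limma (0.209% and 0.0161% of all genes), and 0 had an unadjusted p under 0.05, beside 12.3% and 7.24%.

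Apart from Cd63 in the 2 comparisons above, no tested tetraspanin was called by limma in any of the 21 comparisons of dose, material and day. The share of all genes called in the dose effects was 0.0214% for NRCWE-025 and 0.954% for NRCWE-030 on day 1, and 0.0268% and 0.102% on day 28. With NRCWE-025 it was 0% at 18 and at 54 µg on day 1, then 0.059% and 0.0268% on day 28. With NRCWE-030 these doses had 0.00536% and 0.0804% on day 1, then 0.118% and 0.0536% on day 28. Between the NMs it was 0.155% on day 1 and 0.241% on day 28, for the effect of 162 µg between the days 0.059% for NRCWE-025 and 0.198% for NRCWE-030, and between the vehicle lungs 0.0375%. An unadjusted p under 0.05 was found for Cd63, Cd81, Cd151 and Cd53 in the dose effect of NRCWE-030 on day 1 (11.2% of all genes). At 18 µg of NRCWE-030 on day 1 it was found for Tspan2 (7.30%), and at 54 µg for Tspan2, Cd9, Cd63 and Cd37 (8.76%). Tspan2 shares the controls of day 1 with the comparison that chose it, so its values there are no separate evidence. For Cd9 it was found at 18 µg of NRCWE-030 on day 28 (9.03%). The comparison of the NMs on day 1 had Tspan8 and Cd63 at that level (7.78% of all genes), the effect of NRCWE-030 between the days had Cd9 and Cd63 (7.67%), and the vehicle comparison between the days had Cd9 (8.51%).

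The rest of the family gave 20 tested genes of 21 listed, of which 17 were well above background on all arrays. Tspan10, Upk1a and Prph2 were so on 1, 31 and 0 arrays. At 162 µg of NRCWE-030 on day 1, 2 of the 20 fell and 0 rose: Tspan12, a component of the Norrin receptor complex of blood vessels, by 0.54 ± 0.13 (SE, adjusted p = 0.0420) and Tspan13 by 0.47 ± 0.11 (SE, adjusted p = 0.0379). Of all genes, 0.472% were called lower in that comparison and 1.22% higher. The median of the list was -0.04, beside 0.00 over all genes, and 15 of 20 were lower than control, called or not. Both calls sat near the threshold, since each was lost when any of 8 of the 10 arrays concerned was left out. Of 10 other processing settings, 7 lost the call of Tspan12 (adjusted p up to 0.453) and 6 that of Tspan13 (up to 0.320). In the dose effects and the other 162 µg comparisons 0 of the 20 were called.

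**Figure D5:**
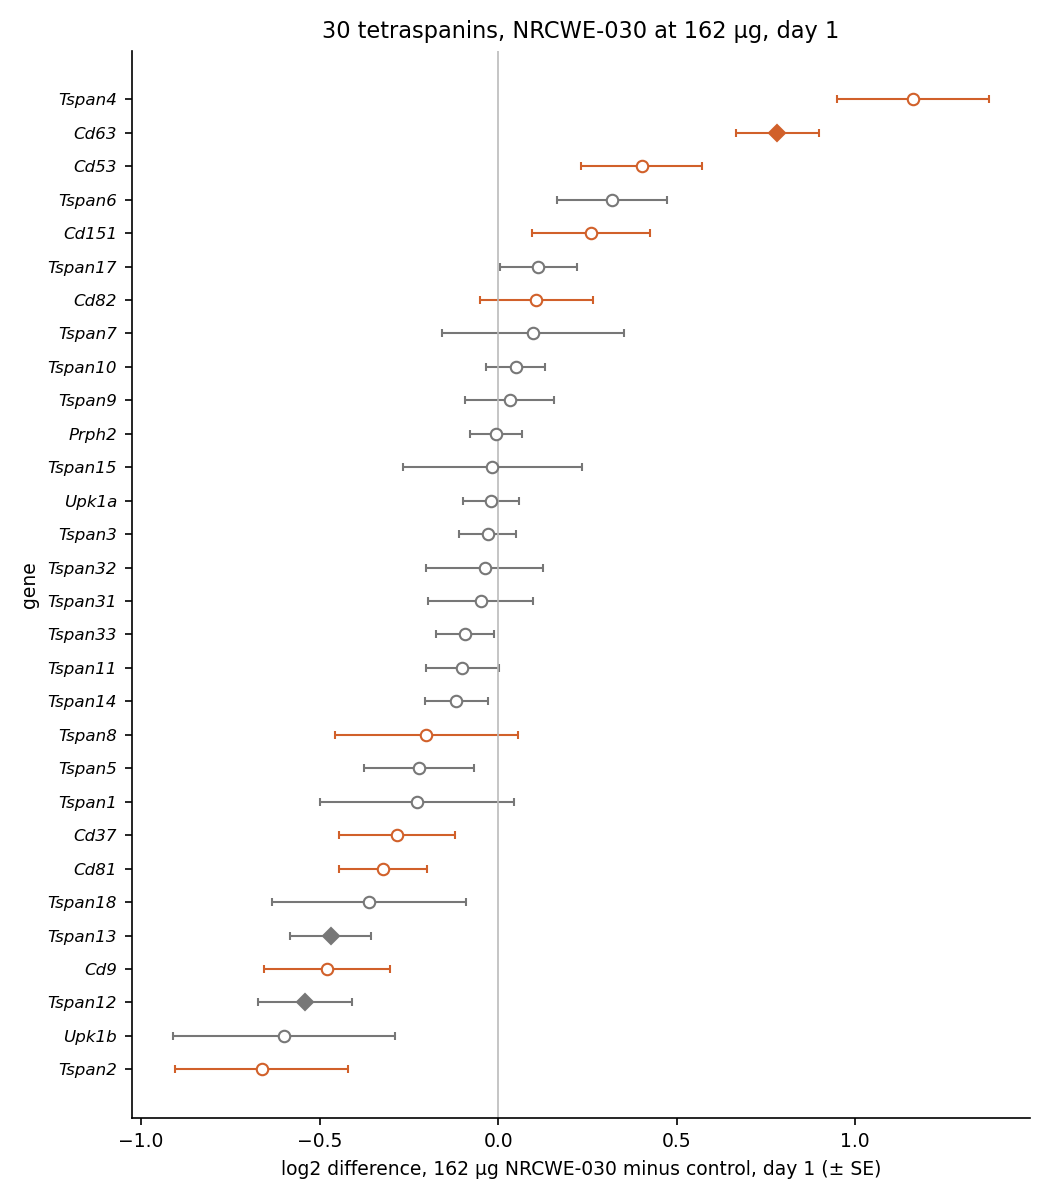
Log2 difference between 162 µg of NRCWE-030 and control on day 1 (x axis, with SE bars) for the tetraspanins measured (y axis, ordered by value). Orange marks the 10 genes of the main text and grey the other 20, filled diamonds a limma adjusted p under 0.05 and open circles none or, for Tspan4, no test; Cd63 at 0.78, Tspan13 at -0.47 and Tspan12 at -0.54 are filled.

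Among genes whose proteins bind tetraspanins, of 19 tested at that dose on day 1, 3 rose and 0 fell, beside 1.22% of all genes called higher, with a list median of 0.16. They were Ifitm3 (0.87 ± 0.14 SE, adjusted p = 0.00316) and Ifitm2 (0.38 ± 0.09 SE, adjusted p = 0.0379), interferon-induced proteins that block virus entry, and Vcam1 (0.59 ± 0.12 SE, adjusted p = 0.0179), an adhesion molecule of activated endothelium. The call of Ifitm3 held without any 1 array, that of Ifitm2 was lost without any of 7, and that of Vcam1 without either of 2. Of 10 other processing settings, 2 lost the call of Ifitm3 (adjusted p up to 0.0741), 3 that of Ifitm2 (up to 0.213) and 3 that of Vcam1 (up to 0.274). Integrins did not pass, with 0.32 for Itga5, 0.19 for Itgb1 and 0.08 for Itga3. The partners of Cd9 and Cd81 had values of 0.28 for Igsf8 and 0.13 for Ptgfrn, which did not pass either.

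Of 20 genes of migrasomes and exosomes, 0 were called at 162 µg of either NM on either day, beside 0.209% and 1.69% of all genes for NRCWE-025 and NRCWE-030 on day 1 and 0.0161% and 0.0965% on day 28. Those with the lowest adjusted p at 162 µg of NRCWE-030 on day 1 were Flot1, a scaffold of membrane rafts (0.39 ± 0.11 SE, adjusted p = 0.0708), and Rab27b, which docks vesicles for release (-0.65 ± 0.19 SE, adjusted p = 0.0980). Exosome factors Pdcd6ip, Tsg101 and Sdcbp were at -0.06, 0.02 and 0.05. Ndst1, an enzyme of heparan sulfate that takes part in migrasome formation, was called between the NMs on day 1 (limma F-test, adjusted p = 0.0238), with a difference of 0.01 at 162 µg, where 0.155% of all genes were called.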

How the data were processed

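RNA from 69 lungs was hybridised against reference RNA on Agilent 2-colour arrays with no dye swap. The deposited scanner files, made with Agilent Feature Extraction, give median signals and local backgrounds as linear intensity, a log10 ratio of Cy5 to Cy3 corrected by the software, and spot flags of another kind. The deposited series matrix holds log2 values, which the authors normalised by LOWESS per the study's methods. Its column medians ran from -0.0457 to 0.0007. Its median r over the arrays was 0.996 with the ratio without background correction and 0.995 with the values used here. On NRCWE-030 18 µg day 28 replicate 5 these were 0.922 and 0.926.

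Background was corrected by normexp (offset 50) in limma 3.58.1 (R 4.3.3), after local backgrounds with an outlier mark took the median of the array's other spots, followed by loess within arrays. Medians were taken over spots and over probes of a symbol. Of 41174 probes, 27479 (66.7%) had a RefSeq symbol (GRCm38.p6). The design build differs, so no probe positions are given; promoter windows carry that table's coordinates. The share of spots well above background in the lung channel (Cy5) ran from 49.1% to 72.8% per array, and the number of arrays limits precision.

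A limma fit per material and day held the controls and 3 doses. A fit of all 14 groups tested materials and days. Calls used a two-sided p below 0.05 after Benjamini-Hochberg adjustment across 18656 genes. Replicates are separate mice. Arrays came from 19 slides and 11 scan days. The script was tested on simulated data. Alternatives changed background, normalisation, probe summary, dim-probe filter, slide and scan day, and left out each array. The members and lists were chosen with earlier results of these data known. Named were all members, list genes called for dose or at 162 µg (at most 6 a list), and the 5 genes most like and 3 least like Tspan4. One list of cell markers is not reported here.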

Additional observations from a re-analysis of the deposited data

Results flagged for a closer look

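Of 140 sets of 1 gene in 1 group, 6 had a single array apart from the others by Dixon's criterion, and 7 are expected by chance. For Tspan8, replicate 4 of the controls of day 28 was at 2.54, under the others by more than their own range of 2.91 to 3.04. For Cd63, replicate 3 of NRCWE-025 54 µg day 1 was at -0.35 (others -1.12 to -0.90) and replicate 5 of NRCWE-030 18 µg day 28 at -1.93 (others -1.31 to -1.07). The latter array also had the lowest share of spots well above background in Cy3 (43.6%), and without it the difference of Cd63 from control was -0.10 in place of -0.25. For Cd81, replicate 5 of the controls of day 28 was at 1.41 (others 0.88 to 1.03). For Cd82, replicate 1 of the controls of day 1 was at -0.64 (others 0.21 to 0.42). For Cd151, replicate 5 of NRCWE-025 54 µg day 28 was at 0.53 (others 1.32 to 1.59).

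Tspan4 differed between the NMs at 162 µg, with NRCWE-030 above NRCWE-025 by 0.63 on day 1 and by 0.84 on day 28. These are descriptions, since the contrast chose the gene.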

How the results depend on the processing

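No paired analysis was possible because the replicate numbers follow the order of accession and the labels tie no mouse of 1 group to one of another. Counts of called tetraspanins in 21 comparisons were recomputed 516 times and did not move in 512. Outside the 2 comparisons that called Cd63 each count began at 0 and could only rise, so that total says little about the calls of Cd63. With slide as a fixed block, 0 in place of 1 passed for 162 µg NRCWE-030 against control on day 1 (Cd63 0.56, adjusted p = 0.0665), and 2 in place of 0, Cd63 and Cd151, between vehicle lungs of day 28 and day 1. With scan day as a fixed block, the same count was 0 (Cd63 0.56, adjusted p = 0.0605). With the scanner log ratio, 0 were called for the dose effect of NRCWE-030 on day 1, where Cd63 was at 0.77 (adjusted p = 0.173). The cause was not tested. Leaving out 1 array at a time kept the call of Cd63 each time, with a difference from 0.69 to 0.86. Of 4050 recomputed differences of single genes of the text, 3780 kept their direction and side of the threshold or moved by less than the spread, 46 lost a call, all of them of Tspan12, Tspan13, Ifitm2, Ifitm3 or Vcam1, 2 gained one (Cd63 and Cd151, as above) and 222 uncalled values moved or changed sign, while 0 called values reversed. Quantile scaling of average intensity leaves ratios as they are and moved nothing.

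Limits are the 4 or 5 mice per group, 1 probe for most of the genes, the missing dye swap, and the 1 to 3 slides per comparison that held both control and treated lungs. Each gene's RNA was measured in whole lung, so levels of protein, migrasomes or exosomes were not measured.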
